A study of Mus musculus with 16 samples.

Results

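The response of conventional dendritic cells of type 1 (cDC1s) to granulocyte-macrophage colony-stimulating factor (GM-CSF) was examined in the spleen of C57BL/6 mice aged 12 weeks. The members were 4 of the 16 libraries of the series, 2 from cDC1s of control mice and 2 from cDC1s of mice that had GM-CSF injected once a day, 3 times. The study's RNA sequencing methods call the control mice steady-state and name no vehicle injection for them. The genes were 11335 of the 24532 in the table, those that reached 1 FPKM in 2 libraries or more of the 16. FPKM is the number of mapped fragments scaled to transcript length and library size. Both groups were sorted as XCR1+ 33D1- cells of the CD11c-high MHC class II+ gate, and the labels name no transgene or deleted allele. The study's figure legends give 2 mice for each cell population, so the replicates of a population are taken as separate mice. Each group mean here rests on 2 values. The other 12 libraries came from control and treated cDC2s (XCR1- 33D1+), from the XCR1- 33D1- cells of the same gate in treated mice (DC-Xs), and from the CD115-high populations of treated mice named P-IV, P-III and P-I. They entered the fit because all 8 groups shared one estimate of the spread.

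GM-CSF signals through a receptor made of an alpha chain (Csf2ra) and the common beta chain (Csf2rb), which activates the kinase JAK2 and the transcription factor STAT5. It drives monocytes and neutrophils and, in mice, supports CD103 (Itgae) expression on cDC1s. The cDC1s depend on the transcription factors IRF8, BATF3 and ID2, take up dead cells and cross-present their antigens to CD8+ T cells, and on maturation raise CCR7, CD40 and a set of further genes as they move to the T cell zone.

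The sorted cells carried the genes of their gate. Xcr1, the receptor of the sort, was at 188 and 235 FPKM in the control libraries and at 169 and 258 in the GM-CSF libraries, so the groups overlapped. Clec4a4, the gene of the antigen that 33D1 binds, had an FPKM listed at 0 in 3 of the 4 cDC1 libraries and of 0.0464 in GM-CSF replicate 2. Clec9a, the dead-cell receptor of cDC1s, was at 67.1 and 75.1 in control against 91.5 and 77.7 in GM-CSF cDC1s. The FPKM totals of the 16 libraries lay between 444141 and 627472, and the values of no 2 of them were identical. The correlation of the replicates over all genes was 0.947 for control and 0.962 for treated cDC1s, and their SD on the log2 scale was 0.517 and 0.419. The table held no counts, so the depth behind a value is unknown.

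In the fit to all 16 libraries, GM-CSF was followed by higher values of 1178 genes (10.4% of those tested) and lower values of 500 (4.41%), 1678 in all (14.8%), at an adjusted p under 0.05 in limma and a log2 fold change of at least 1. Here and below, rose, fell, higher and lower with a count refer to this rule, and fold changes are on the log2(FPKM + 1) scale, on which genes of low FPKM change by less than on the FPKM scale. The values of the 2 groups did not overlap for 6158 genes, 54.3% of those tested. The pooled spread was smaller than that of the cDC1 libraries themselves: limma gave the control cDC1 libraries a weight of 0.242 and the GM-CSF cDC1 libraries 0.543, against 6.53 for P-IV. Leaving out 1 cDC1 library moved the count to 2821 (without control replicate 1), 1026 (without control replicate 2), 1665 (without GM-CSF replicate 1) and 1004 (without GM-CSF replicate 2). The fit to the 8 cDC libraries alone called 81 genes, 55 higher and 26 lower, and the fit to the 4 cDC1 libraries called 0, with 2145 at an unadjusted p under 0.05. With quantile normalization the calls were 714 higher and 597 lower, and with median-of-ratios scaling 918 and 804, and the median of all genes moved from 0.14 to -0.02 and to 0.04.

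The direction of change went with transcript length. Among the 10876 genes with a known length (96.0% of those tested), the shortest of 5 classes, up to 1918 nucleotides, had a median log2 fold change of -0.42 with 32 genes higher and 307 lower, and the fourth class, of 3784 to 5074 nucleotides, had a median of 0.44 with 432 higher and 32 lower. The rank correlation across genes between fold change and length was 0.392. It was 0.423 between the libraries numbered 1 and 0.289 between those numbered 2, but -0.081 between the control replicates and -0.048 between the GM-CSF replicates, and -0.132 for GM-CSF against control in cDC2s. These correlations are across genes, which are not replicates, and carry no p. The deviations of the control cDC1 libraries from the mean of each gene ran against length (rho -0.312 and -0.280), while those of the GM-CSF cDC1 libraries did not run with it (0.068 and 0.006). A change in the cells and a difference in how the libraries held short transcripts cannot be told apart from this design. After a length correction, in which each library's trend on length was subtracted, 577 genes (5.31% of 10876) were higher and 456 (4.19%) lower, and 735 of the calls before correction kept their direction and call. This correction left a larger trend on GC content. The rank correlation of the fold change with GC content was 0.169 before it and 0.335 after it. Between the control replicates (2 minus 1) it was -0.332. When length and GC content were corrected together it was -0.002.

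**Figure D1:**
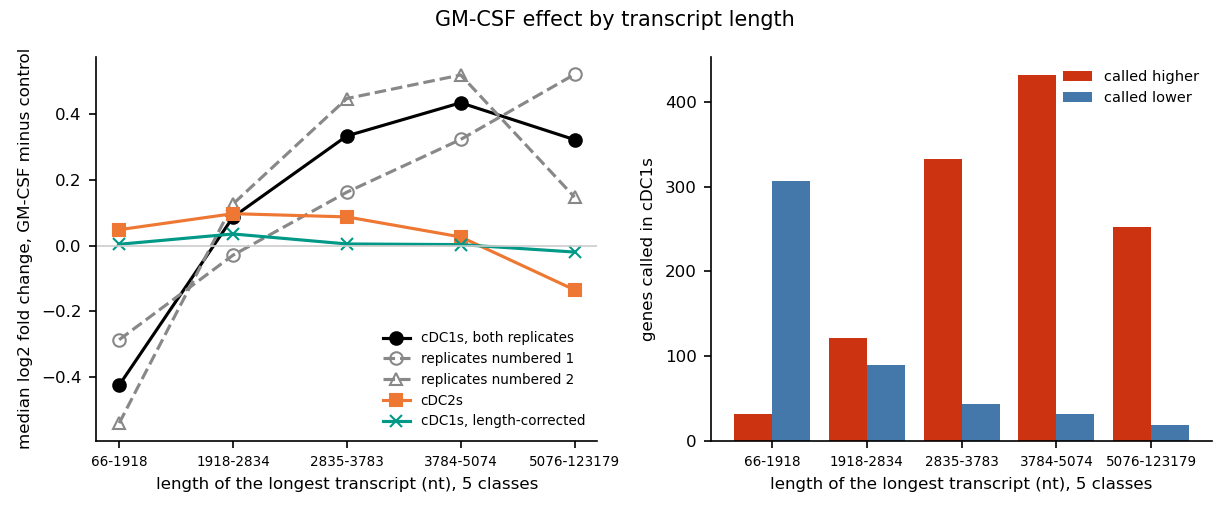
Left, median log2 fold change of GM-CSF against control in 5 classes of transcript length for cDC1s (both replicates, each replicate number, and after length correction) and for cDC2s. Right, genes called higher or lower in cDC1s in each class: 32 higher and 307 lower in the shortest class, 432 and 32 in the fourth.

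A stricter set of 372 genes (3.28% of those tested), 291 higher and 81 lower, was called in the fit to all libraries, after the length correction and without each of the 4 cDC1 libraries in turn. Of these, 307 kept their direction and call after correction for length and GC content, 241 higher and 66 lower. The genes named next are the 20 largest rises and 15 largest falls of that set with at least 10 FPKM in both libraries of the higher group. The largest rise was that of Itgae, which encodes integrin alpha E, the CD103 antigen (chromosome 11, 73090505 to 73147449, GRCm38.p6). Itgae was at 14.6 and 4.67 FPKM in the control libraries and at 141 and 228 in the GM-CSF libraries, a log2 fold change of 4.26 (SE 0.42, adjusted p = 0.000273, limma). Itgb7, the beta chain that pairs with alpha E to bind E-cadherin, rose with it from 99.4 and 63.6 to 346 and 451 FPKM (2.30, SE 0.26, adjusted p = 0.000582). Both chains of this integrin were thus higher in each GM-CSF library than in either control library, which the rule of this set favours. The beta chain was already well above the alpha chain in control cells.

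Plet1, a surface protein first described in placenta and found on intestinal dendritic cells of mice, was at 0.687 and 0.714 FPKM in control against 45.6 and 10.5 in GM-CSF cDC1s (log2 fold change 3.77, SE 0.56, adjusted p = 0.00143, limma). The 2 treated libraries of Plet1 lay far apart. Gbp2b, an interferon-inducible guanylate-binding protein, was listed at 0 and at 0.614 in control and was at 11.5 and 18.4 in GM-CSF cDC1s (3.61), and its close relative Gbp2 was at 3.34 and 5.83 against 4.92 and 9.18, with overlapping groups. Reads of such related genes may be split between them by the counting. Tcea3, a transcription elongation factor, went from 0.934 and 0.873 to 21.51 and 23.005 FPKM (3.61, SE 0.22, adjusted p = 1.16e-05), with replicates close to each other in both groups.

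The other rises took in genes of several functions. Among enzymes and transporters were Slc52a3, a riboflavin transporter (0.999 and 0.933 to 11.4 and 14.3 FPKM), Pnpla7, a lysophospholipase (6.95 and 2.74 to 28.5 and 36.1), St6gal1, the sialyltransferase that makes alpha-2,6-linked sialic acid (8.09 and 8.12 to 42.8 and 53.5), Acss1, the mitochondrial acetyl-CoA synthetase (16.2 and 6.52 to 48.1 and 66.9), and Atp13a2, a lysosomal polyamine transporter (6.76 and 3.90 to 23.9 and 39.6). Signalling and chromatin genes were represented by Tyk2, the kinase of the type I interferon and IL-12 receptors (19.7 and 7.51 to 53.9 and 91.0), Cdc25b, the phosphatase that starts entry into mitosis (1.90 and 0.838 to 13.1 and 14.9), and Kdm4b, a histone H3 lysine demethylase (1.38 and 1.82 to 11.9 and 12.99). Krt80, Jup and Sept3 encode a keratin, plakoglobin and a septin, all of the cytoskeleton or its junctions, and Mfn2 and Esyt1 encode proteins that tether organelle membranes. With Tmem184b and Ddb1, the DNA damage-binding subunit, the log2 fold changes of these 20 genes ran from 2.30 to 4.26. Only Plet1 and Tcea3 of the 20 have their longest transcript in the shortest length class. Control cDC1s had the lowest mean of the 8 groups for all of the 20 but Itgae, Plet1, Gbp2b, Tcea3, Slc52a3 and Sept3. Mfn2 had a mean of 2.05 FPKM in control and 15.1 in GM-CSF cDC1s, beside 11.9 to 19.7 in the other groups. Ddb1 had 12.6 and 58.5, beside 34.2 to 53.2. Whether the low values of control cDC1s lie in the cells or the libraries was not tested.

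**Figure D2:**
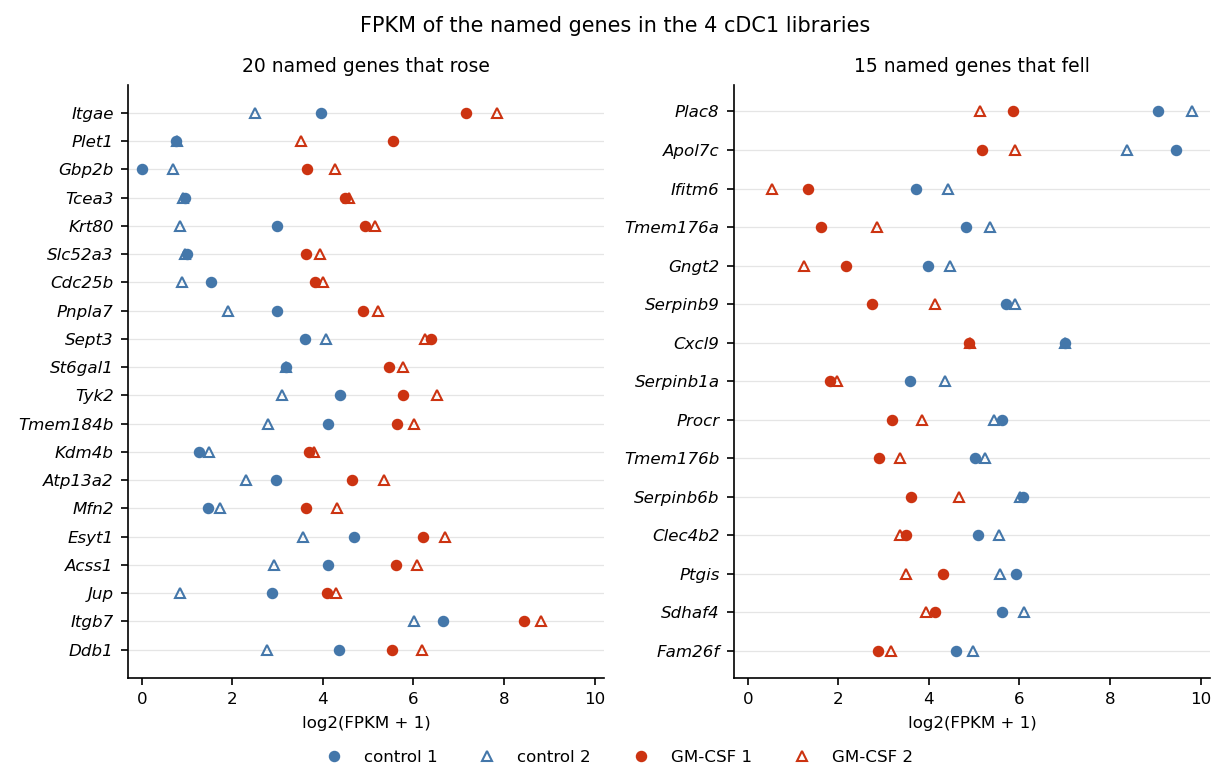
log2(FPKM + 1) of the 20 named genes that rose (left) and the 15 that fell (right) in the 4 cDC1 libraries, with control libraries in blue and GM-CSF libraries in red. Points are single libraries. The groups do not overlap for any of the 35 genes, which the rule that chose them favours, beside 54.3% of all genes tested.

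The largest fall was that of Plac8, a small cysteine-rich protein of leukocytes (chromosome 5, 100551589 to 100572253, GRCm38.p6). Plac8 was at 533 and 894 FPKM in the control libraries and at 56.7 and 34.2 in the GM-CSF libraries, a log2 fold change of -3.94 (SE 0.44, adjusted p = 0.000582, limma). Apol7c, an apolipoprotein L family member, was at 701 and 332 FPKM in control against 35.2 and 58.8 in GM-CSF cDC1s (-3.38, SE 0.62, adjusted p = 0.00361). Both genes were among the more abundant of the named genes in control cDC1s and lost most of that level.

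Several of the other falls belong to families. Serpinb9, Serpinb1a and Serpinb6b are clade B serine protease inhibitors of the cytosol, SERPINB9 being an inhibitor of granzyme B. Serpinb9 went from 50.8 and 59.0 to 5.67 and 16.5 FPKM (log2 fold change -2.37), Serpinb1a from 10.9 and 19.6 to 2.52 and 2.95 (-2.07), and Serpinb6b from 67.0 and 63.6 to 11.1 and 24.3 (-1.92). Tmem176a and Tmem176b, neighbouring genes for a pair of related membrane proteins, went from 27.4 and 39.9 to 2.07 and 6.22 (-2.86) and from 31.4 and 36.8 to 6.40 and 9.35 (-2.0). Cxcl9, the chemokine that draws CXCR3+ T cells, had nearly equal replicates, 128 and 127 FPKM in control against 28.4 and 29.1 in GM-CSF cDC1s (-2.11, SE 0.29, adjusted p = 0.00112, limma). The remaining falls were Ifitm6 (12.0 and 20.6 to 1.52 and 0.452), the G protein subunit Gngt2, the protein C receptor Procr, the lectin Clec4b2, the prostacyclin synthase Ptgis (59.9 and 46.8 to 19.0 and 10.23), the succinate dehydrogenase assembly factor Sdhaf4 and Fam26f, with log2 fold changes from -1.76 to -3.13. Sdhaf4 has the shortest transcript of the 35 (683 nucleotides), and its change of -1.82 became -1.01 after the length correction and -0.86 when GC content was corrected as well, which ended the call for this one gene of the 35.

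Promoters were read for the named genes, since interferon-inducible genes stood in both directions. RefSeq promoters on GRCm38.p6, from 250 bases before to 50 after the start, were found for 15 of the 20 rises and 12 of the 15 falls. The interferon-stimulated response element, taken as GAAA followed after any 2 bases by a further GAAA and sought on both strands, was in 1 of the 15, that of Gbp2b, and in 3 of the 12, those of Apol7c, Serpinb9 and Fam26f. It was in 3.4% of all 32851 promoters of that length and in 3.4% of the 11420 promoters of genes tested. These shares count promoters, while the named genes count as genes, some with more than 1 promoter. The sequences that hold it are shown with the element in capitals, 5′ to 3′ on the strand of the gene, and in Apol7c a pair of matches overlaps.
Gbp2b promoter, chr3:142594597-142594896 (+ strand): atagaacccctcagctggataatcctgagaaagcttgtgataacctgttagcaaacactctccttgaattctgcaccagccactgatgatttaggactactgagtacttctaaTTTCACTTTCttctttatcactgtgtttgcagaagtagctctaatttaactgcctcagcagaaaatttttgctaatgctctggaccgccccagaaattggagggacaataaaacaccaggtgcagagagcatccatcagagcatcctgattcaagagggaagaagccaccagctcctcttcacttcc
Apol7c promoter, chr15:77533266-77533565 (- strand): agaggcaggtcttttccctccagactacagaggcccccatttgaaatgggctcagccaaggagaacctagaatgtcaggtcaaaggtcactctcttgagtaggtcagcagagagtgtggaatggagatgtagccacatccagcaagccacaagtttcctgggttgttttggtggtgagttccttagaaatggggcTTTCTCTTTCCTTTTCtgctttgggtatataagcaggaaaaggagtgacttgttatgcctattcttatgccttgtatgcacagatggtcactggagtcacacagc
Serpinb9 promoter, chr13:33004291-33004590 (+ strand): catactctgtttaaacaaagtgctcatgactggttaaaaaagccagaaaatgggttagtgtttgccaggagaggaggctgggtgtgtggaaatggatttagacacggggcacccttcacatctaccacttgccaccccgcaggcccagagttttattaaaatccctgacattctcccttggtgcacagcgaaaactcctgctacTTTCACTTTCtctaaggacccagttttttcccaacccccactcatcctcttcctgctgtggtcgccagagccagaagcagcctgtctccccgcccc
Fam26f promoter, chr10:34127923-34128222 (- strand): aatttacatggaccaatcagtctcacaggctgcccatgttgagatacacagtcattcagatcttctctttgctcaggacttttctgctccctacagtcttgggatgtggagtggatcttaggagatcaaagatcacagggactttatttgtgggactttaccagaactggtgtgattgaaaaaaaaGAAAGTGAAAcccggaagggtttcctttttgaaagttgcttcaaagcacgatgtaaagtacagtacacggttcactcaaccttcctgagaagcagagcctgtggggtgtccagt
In Gbp2b, which rose, the element starts 137 bases before the start site, and in the 3 genes that fell it starts 46 to 64 bases before it. The STAT dimer site TTCNNNGAA was in 0 of the 15 rises and 1 of the 12 falls (Ifitm6), against 8.3% of all promoters and 6.8% of those of genes tested. A match is a string of letters in this window and says nothing of a bound factor.

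Of 35 tested genes of mature dendritic cells, 14 fell and 0 rose in GM-CSF cDC1s and 21 were not called. Of all genes tested 4.41% fell and 10.4% rose. The list had a median log2 fold change of -0.88 against 0.14 for all genes tested. After the length correction 13 fell and 0 rose (median -1.01), and after correction for length and GC content 11 fell. The list was drawn up with earlier results of these data known. It holds Apol7c, Tmem176a, Tmem176b and Serpinb6b of the named falls, so its share of falls is in part built in. Tmem176a and Tmem176b had their highest group means in P-IV cells, at 388 and 802 FPKM, so in this series they are not particular to mature cDC1s. Ccr7, the receptor that guides mature dendritic cells to lymph nodes and T cell zones, was at 249.9 and 267 FPKM in control against 36.2 and 132 in GM-CSF cDC1s (-1.88, SE 0.51, adjusted p = 0.0190, limma). Cd40, the receptor for T cell help, was at 85.9 and 63.6 in control against 26.2 and 29.6 in GM-CSF cDC1s (-1.38, SE 0.20, adjusted p = 0.00131). Cd40 was in the stricter set with Apol7c, Samsn1, Tmem176a, Tmem176b and Serpinb6b, whereas Ccr7 lost its call without control replicate 2 (adjusted p = 0.0847) and without GM-CSF replicate 1 (-0.96, adjusted p = 0.154).

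The treated replicates of this list differed from each other. Ccl22, a chemokine of mature dendritic cells, was at 27.5 and 32.6 FPKM in control against 2.44 and 11.7 in GM-CSF cDC1s, Cd63, a tetraspanin of late endosomes, at 35.2 and 64.5 against 2.34 and 13.4, and Ccl5, a T cell chemokine, at 31.9 and 87.6 against 1.06 and 19.3. In each of these the first treated library was the lower. Fscn1, the actin bundler of mature dendritic cells, was at 16.7 and 3.48 in control against 1.798 and 29.2 in treated cells, with no common direction, and Cd86 and Relb also had overlapping groups. The list held 6 falls without GM-CSF replicate 1, 17 without GM-CSF replicate 2, 14 without control replicate 1, 7 without control replicate 2, and 4 in the fit to the 8 cDC libraries. In a bulk sample, fewer mature cells within the gate and less of these RNAs per cell cannot be told apart. The same list had a median of -1.18 in cDC2s, where Ccr7 went from 423 and 590 to 161 and 112 FPKM, and the difference between the subsets was not called for any of the 6 genes of the stricter set.

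**Figure D3:**
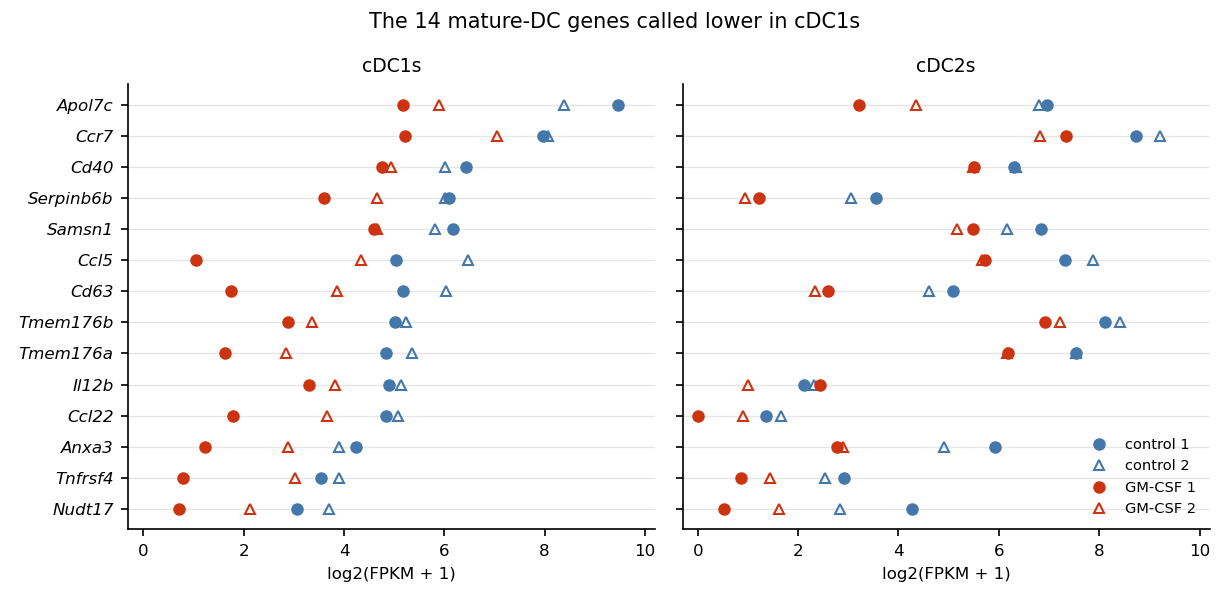
log2(FPKM + 1) of the 14 mature-DC genes called lower in cDC1s, in cDC1s (left) and cDC2s (right), with control libraries in blue and GM-CSF libraries in red. In cDC1s every GM-CSF value lies below both control values, which the choice of genes called lower in cDC1s favours. The first treated library is the lower for 14 of 14 genes. In cDC2s the groups overlap for Il12b.

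Of 26 tested genes of cDC1 identity, 2 rose (Itgae and Cd207) and 2 fell (Cd8a and Id2). This is a share near the 14.8% of all genes tested that were called. All 4 were in the stricter set. Cd207, the lectin langerin, was at 58.4 and 55.9 FPKM in control against 228 and 236 in GM-CSF cDC1s (log2 fold change 2.00, SE 0.20, adjusted p = 0.000273, limma). Cd8a, the CD8 alpha chain that marks resident cDC1s, moved the other way, from 320.1 and 344 to 89.2 and 155 (-1.49, SE 0.26, adjusted p = 0.00308). The lectin and the CD8 chain therefore changed in opposite directions on cells sorted by the same gate. Id2, an inhibitor of E proteins needed by cDC1s, was at 1628 and 1565 in control against 764 and 688 in GM-CSF cDC1s (-1.14), and -0.81 without a call once GC content was corrected too. Irf8 (1419.9 and 821 against 1718 and 1684) and Batf3 (203 and 265 against 161 and 84.2, -0.99, adjusted p = 0.0251) did not meet the rule. Among 33 tested transcription factors of dendritic cells, 2 rose, Zbtb46 and Notch2, and Id2 alone fell, beside 10.4% and 4.41% of all genes. Neither rise was in the stricter set.

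Integrins and adhesion molecules rose in 10 of 26 tested and fell in 0, beside 10.4% and 4.41% of all genes, with a median of 0.49. Besides Itgae and Itgb7, the stricter set held Itgal, the alpha chain of LFA-1, at 19.1 and 12.97 FPKM in control against 60.9 and 71.7 in GM-CSF cDC1s (2.00, SE 0.23, adjusted p = 0.000621, limma), and Itga5, the fibronectin receptor chain, at 1.26 and 0.741 against 7.97 and 7.32 (2.12, SE 0.25). Itgb2, the beta chain of LFA-1, was at 163 and 76.4 against 272 and 301 (1.35). Itgb1, Itgax, Itga1, Itga6 and Pecam1 also rose, at 1.08 to 1.47, but these and Itgb2 lost the call without 1 or more of the libraries, and the list held 6 rises without control replicate 2 or without GM-CSF replicate 2. The median length of this list was 4067 nucleotides. After the length correction 6 of the 26 rose, with a median of 0.24, beside 5.31% of all genes with a length. After correction for length and GC content 4 rose, and in the fit to the 8 cDC libraries 4. Itgam, which encodes CD11b, was below 1 FPKM in all 4 libraries.

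Cell cycle genes were taken as a list of mitosis and a list of DNA replication. Of 27 tested genes of mitosis, 16 rose and 0 fell (median 1.08), while of 30 tested genes of DNA replication 0 rose and 8 fell (median -0.42). Of all genes tested 10.4% rose and 4.41% fell. The length correction left 9 rises and 7 falls, quantile normalization 9 and 7, and median-of-ratios scaling 8 and 8. Plk1, the kinase of mitotic entry, was at 9.44 and 17.8 FPKM in control against 37.5 and 60.4 in GM-CSF cDC1s (1.796, SE 0.33, adjusted p = 0.00394, limma). Kif20a, a kinesin of cytokinesis, was at 9.13 and 5.97 against 25.5 and 45.1 (2.06, SE 0.32), and Espl1, the separase that releases sister chromatids, at 0.216 and 0.871 against 3.24 and 5.85 (1.84). These with Cdc25b were the mitotic genes of the stricter set. Mki67 (3.88 and 4.69 against 15.7 and 4.49) and Cdk1 (18.7 and 32.1 against 16.3 and 25.3) had overlapping groups.

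Among the replication genes, Pcna, the clamp of DNA polymerases, was at 115 and 191 FPKM in control against 69.6 and 65.1 in GM-CSF cDC1s (-1.12, SE 0.25, adjusted p = 0.00769, limma). Prim1, the primase subunit, was at 17.5 and 25.1 against 7.53 and 10.9 (-1.12), and Gins2, of the replicative helicase, at 21.4 and 39.8 against 9.26 and 12.975 (-1.33). The helicase subunits Mcm2, Mcm3 and Mcm5 had overlapping groups. The falls numbered 0 without control replicate 2 and 1 without GM-CSF replicate 1, and the mitotic rises 7 without control replicate 1 and 6 without GM-CSF replicate 2, and the 8 cDC libraries alone gave 0 falls and 1 rise. None of the replication falls was in the stricter set. In cDC2s the same lists had medians of 1.86 and 0.41. Prim1 was at 13.8 and 14.3 FPKM in control against 15.2 and 25.3 in GM-CSF cDC2s, and its change differed between the subsets by -1.58 (adjusted p = 0.0302, limma).

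**Figure D4:**
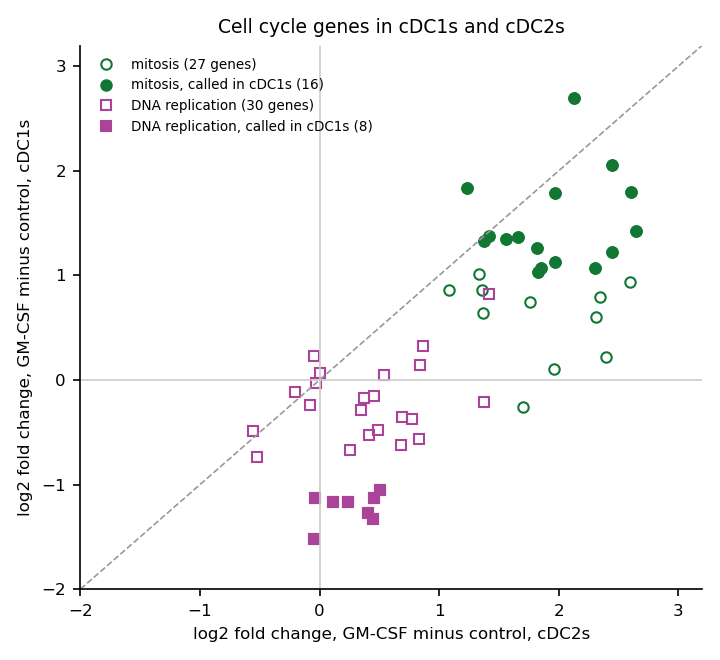
log2 fold change of GM-CSF against control in cDC2s (x axis) and cDC1s (y axis) for 27 genes of mitosis (green circles) and 30 of DNA replication (purple squares), filled where called in cDC1s. The dashed line marks equal change; the 8 called replication genes lie at or below -1.05 in cDC1s and between -0.05 and 0.50 in cDC2s.

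Of 24 tested genes of the receptor, STAT5 and feedback, 4 rose (Csf2rb, Stat5a, Stat3 and Sh2b3) and 2 fell (Socs2 and Ccnd1), against 10.4% and 4.41% of all genes, and none was in the stricter set. After the length correction 0 rose and 3 fell, and the rises numbered 8 without control replicate 1, 1 without control replicate 2, 3 without either GM-CSF replicate and 1 with quantile normalization. Csf2ra, the alpha chain, was at 183 and 122 FPKM in control against 199 and 278 in GM-CSF cDC1s (0.65, adjusted p = 0.0804, limma), and Csf2rb at 28.2 and 15.2 against 48.2 and 43.8 (1.11, adjusted p = 0.00985). Csf2rb2 is a near copy of Csf2rb, and its reads may not be separable from it. Cish and Pim1, feedback and target genes of STAT5, differed between the treated libraries and were not among the calls. Cish was at 2.14 FPKM in the first and 0.731 in the second. Pim1 was at 137 and 6.72, against 66.2 and 27.5 for Pim1 in control. Treated cDC2s had the same order, with Pim1 at 158 and 11.8, and across genes the difference between replicates 1 and 2 correlated at 0.671 between treated cDC1s and treated cDC2s.

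Among other receptors, Kit, the stem cell factor receptor, rose from 21.2 and 11.0 to 48.5 and 70.0 FPKM (1.86, SE 0.35, adjusted p = 0.00432, limma), and Tgfbr2, the type II receptor of TGF-beta, from 3.09 and 3.998 to 15.02 and 18.2 (1.96, SE 0.24, adjusted p = 0.000714). Il2rg, the common gamma chain, fell from 42.9 and 56.0 to 13.9 and 18.5 (-1.55, SE 0.25, adjusted p = 0.00219). S1pr2, a sphingosine-1-phosphate receptor, rose from 2.39 and 1.85 to 12.2 and 13.1 (2.14). All 4 genes were in the stricter set. No value of a GM-CSF library fell within the control range, which the rule of that set favours.

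Of 13 MHC class II antigen presentation genes limma called 0, beside 14.8% of all genes, with 5 at an unadjusted p under 0.05. H2-Ab1, the class II beta chain, was at 22828 and 22209 FPKM in control against 15868 and 18071 in GM-CSF cDC1s (-0.41, SE 0.22, adjusted p = 0.189, limma). Of 22 MHC class I processing genes 3 rose and 2 fell, beside 10.4% and 4.41% of all genes. The peptide transporters Tap1 and Tap2 and the chaperone gene Tapbp rose at 1.00 to 1.28, and B2m and Psme2 fell at -1.20 and -1.09. After the length correction limma called 0 of the 22. Of 16 costimulatory and coinhibitory genes Cd40 alone was called in the fit to all libraries, beside 14.8% of all genes. Cd86, with 189 and 148 FPKM in control against 164 and 235 in GM-CSF cDC1s, overlapped between groups.

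The calls among secreted signals were all falls in the fit to all libraries. Of 17 cytokine genes 5 fell and 0 rose, and of 16 chemokines 4 fell and 0 rose, beside 4.41% of all genes that fell. After the length correction 3 cytokines fell and 1 rose, and their median went from -0.21 to 0.03. Of the chemokines, with a median length of 1368 nucleotides, 3 fell, and their median went from -0.51 to 0.12. The 8 cDC libraries alone gave 0 cytokine falls and 1 chemokine fall, and library weights gave 0 and 0. Tnfsf13b, which encodes the B cell survival factor BAFF, was at 4.11 and 4.41 FPKM in control against 0.617 and 1.20 in GM-CSF cDC1s (-1.48, SE 0.29, adjusted p = 0.00505, limma), and Cxcl10, the partner of Cxcl9 as a CXCR3 ligand, at 17.3 and 40.7 against 8.07 and 6.96 (-1.70, SE 0.34, adjusted p = 0.00524). These with Cxcl9 were in the stricter set, while Il1b and Ltb lost the call without control replicate 1, Il12b without control replicate 2 and Il6 without GM-CSF replicate 2. Among 24 Toll-like receptors and adaptors 3 rose, a share near the 10.4% of all genes: Tlr13, the sensor of bacterial ribosomal RNA, from 7.46 and 7.37 to 22.8 and 39.0 FPKM (1.87), the ubiquitin ligase Traf6 from 2.06 and 3.09 to 8.08 and 10.5 (1.53), and Tlr2. Tlr13 and Traf6 were in the stricter set, and Tlr3, Tlr11 and Tlr12, the sensors typical of cDC1s, were not called.

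Interferon-inducible genes did not move as a block. Of 38 tested, 6 rose and 0 fell with a median of 0.35, beside 10.4% of all genes that rose. The rises numbered 4 without control replicate 2, 3 without GM-CSF replicate 1, 1 without GM-CSF replicate 2, 2 with quantile normalization, 3 with median-of-ratios scaling and 0 with library weights. The stricter set held Oasl2, an oligoadenylate synthetase-like protein, at 0.147 and 0.629 FPKM in control against 4.496 and 4.78 in GM-CSF cDC1s (2.04, SE 0.33, adjusted p = 0.00196, limma). Of 17 guanylate-binding and immunity-related GTPases, 2 rose, Gbp2b and Gbp3, a share near the 10.4% of all genes, with a median of -0.04. Ifitm3 and Ifitm6, members of the family that blocks viral entry, fell among 11 tested Ifi200 and IFITM genes, beside 4.41% of all genes.

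In metabolism, Acly, which makes cytosolic acetyl-CoA, rose from 22.6 and 8.27 to 47.2 and 58.8 FPKM (1.86, SE 0.38, adjusted p = 0.00614, limma). Of 31 tested genes of cholesterol synthesis and its regulation 5 rose and 0 fell, beside 10.4% and 4.41% of all genes. The rises numbered 4 after the length correction and 0 in the fit to the 8 cDC libraries. Pfkp, a phosphofructokinase, rose from 41.0 and 33.0 to 78.1 and 111 FPKM (1.32), one of 3 rises among 27 glycolysis genes, a share near the 10.4% of all genes, with 2 after the length correction and 0 after length and GC. Manf, a protein of the endoplasmic reticulum, fell from 87.7 and 107 to 38.2 and 30.8 (-1.47, SE 0.19, adjusted p = 0.000843, limma). Of 26 tested genes of protein folding in the endoplasmic reticulum and the unfolded protein response 1 rose and 3 fell, beside 10.4% and 4.41% of all genes. Of 16 genes of retinoid and TGF-beta activation, 4 rose before and after the length correction, beside 10.4% and 5.31% of all genes. They were Dhrs3, Rara, Tgfbi and Plet1, placed in the list for its place in gut dendritic cells. Rara, the retinoic acid receptor alpha, went from 5.34 and 2.97 to 22.2 and 16.8 (2.02, SE 0.29), and Tgfbi from 109.8 and 38.8 to 232 and 248 (1.86). Aldh1a2, which makes retinoic acid, was at 3.42 and 2.19 against 0.732 and 1.64 and was not called.

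A pair of lists held genes with short transcripts. Of 82 tested cytosolic ribosomal protein genes 23 fell and 0 rose (median -0.92), and of 76 respiratory chain genes 27 fell and 0 rose (median -0.86). Of all genes tested 4.41% fell. The median lengths of these lists were 1076 and 1186 nucleotides, and after the length correction 13 and 8 fell, with medians of -0.35 and -0.27. The falls numbered 1 and 1 without control replicate 2, 1 and 2 without GM-CSF replicate 2, 52 and 34 without GM-CSF replicate 1, and 60 and 51 without control replicate 1, and none was in the stricter set. With quantile normalization 6 ribosomal and 10 respiratory genes fell, and with median-of-ratios scaling 50 and 39. In cDC2s the medians of both lists were -0.04 and 0.02.

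**Figure D5:**
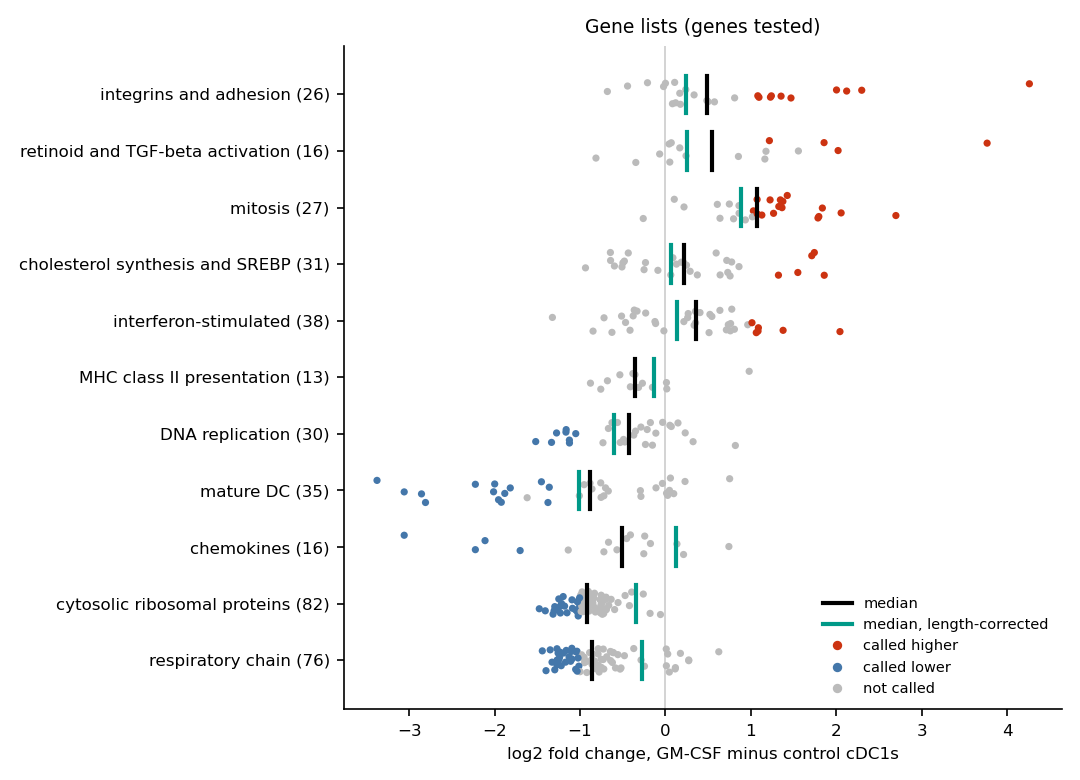
log2 fold change of GM-CSF against control cDC1s for the tested members of 11 gene lists, with calls in red (higher) and blue (lower), the list median in black and the median after the length correction in green. The mature-DC median is -0.88 before and -1.01 after the correction, and the ribosomal median moves from -0.92 to -0.35.

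Markers of other cells were read in the same libraries. Mgl2 and Clec10a, lectins of the DC-Xs and P-IV cells that appear in treated mice, rose from 0 and 0.134 to 3.74 and 6.13 FPKM and from 0.0259 and 0.134 to 3.79 and 3.56, values that are 1.18% and 3.92% of their mean in DC-Xs. Of 17 markers of these cells 5 rose and 1 fell, beside 10.4% and 4.41% of all genes. The list's summed FPKM was 771 and 954 in control against 767 and 659 in GM-CSF cDC1s, most of it Lyz2, at 475 and 629 against 528 and 475. Cd209a, at 1111 FPKM in DC-Xs, was at a mean of 5.05 in control and 5.64 in GM-CSF cDC1s. Of 10 tested neutrophil markers limma called 0 (3 at an unadjusted p under 0.05) and 5 as higher after the length correction. Their sum was 0.860 and 0.596 FPKM in control against 4.84 and 7.48 in GM-CSF cDC1s, Camp and Ngp being listed at 0 in both control libraries. The length correction also shifts values at or near 0. Hba-a1, listed at 0 in all 4 cDC1 libraries, went from a log2 fold change of 0 to 0.81, and Retnlg from 0.32 to 1.17. Calls of short genes near 0 FPKM after the correction can therefore hold this shift. B cell markers summed to 40.5 and 35.9 in control against 19.6 and 17.1 in GM-CSF cDC1s, and 1 of 10 tested fell. Of 11 markers of classical monocytes, Mcemp1 alone fell, from 5.097 and 7.035 to 1.86 and 1.55 FPKM. Of 11 tested markers of red pulp macrophages Adgre1, which encodes F4/80, rose from 3.95 and 1.22 to 6.54 and 7.08 FPKM. The list summed to 439.6 and 279 in control against 369.8 and 313 in GM-CSF cDC1s. Most of this was Treml4, at 276 and 227 against 253 and 258, so the sum says little of the other members. Hmox1 differed between the control replicates, at 79.8 and 8.45 FPKM against 35.0 and 14.6 in GM-CSF cDC1s. Of 5 tested markers of basophils, mast cells and eosinophils limma called 0, and 2 (Prss34 and Mcpt8) as higher after the length correction, with a sum of 0 and 0.640 FPKM in control against 2.88 and 4.23 in GM-CSF cDC1s. Prss34 was listed at 0 in both control libraries and was at 1.29 and 1.84 in the treated ones, so the shift near 0 applies to these calls too. The part of such cells in the changes above was not tested.

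The change in cDC1s was set against that in cDC2s by a test of the difference of the 2 effects, which called 775 genes (6.84% of those tested), 481 with the greater log2 fold change in cDC1s and 294 in cDC2s. Of the 372 genes of the stricter set, 59 were also called in the same direction in cDC2s and 169 differed between the subsets. Itgae went from 0.0289 and 0.00350 to 1.95 and 2.06 FPKM in cDC2s (1.56) and differed between the subsets by 2.70 (adjusted p = 0.0268, limma). With a pseudocount of 0.1 that difference was 0.24 (adjusted p = 0.874), and the call was also lost without GM-CSF cDC1 replicate 2, control cDC2 replicate 1 or either GM-CSF cDC2 replicate. Cd207 was below 1 FPKM in every cDC2 library and differed by 1.82 (adjusted p = 0.00725). Kdm4b, at 11.5 and 11.1 in control against 9.61 and 13.7 in GM-CSF cDC2s, differed by 2.35 (adjusted p = 0.00401), and Plac8, at 293 and 419.5 against 206 and 317, by -3.49 (adjusted p = 0.0139). Krt80 was already at 41.5 and 61.7 FPKM in control cDC2s and reached 146 and 138, and its difference of 1.65 did not pass (adjusted p = 0.152). The fits to the 8 cDC libraries and to the 10 libraries of the dendritic cell gate each called the difference for 2 genes, so these differences rest on the spread pooled with the CD115-high groups.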

How the data were processed

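Per the labels and the study's methods, RNA of sorted cells was amplified with the SMARTer Ultra Low Input kit and sequenced on a NovaSeq. The submitters' processing notes name bcl2fastq 1.8.4, HISAT2 2.1.0, StringTie 1.3.4d and mm10. The authors deposited FPKM values per gene, and no read counts were used here.

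FPKM values were taken as log2(FPKM + 1), with genes at 1 FPKM or more in at least 2 of 16 libraries. Group means were fitted with limma 3.58.1 (trend, R 4.3.3) over all 16 libraries, with Benjamini-Hochberg adjustment over all 11335 genes. The call rule was an adjusted p under 0.05 with a log2 fold change of at least 1. Transcript lengths came from GENCODE M21 (longest transcript), and the length correction subtracted a loess curve of each library's deviations on log10 length. Named genes were the 20 largest rises and 15 largest falls called in the fit to all libraries, after the length correction and without each cDC1 library, at 10 FPKM or more in both libraries of the higher group, and any member of the gene lists or gate gene could be named besides. Other tools were Python 3.11.15, pandas 2.3.3, scipy 1.17.1 and matplotlib 3.10.9. The members and lists were chosen with earlier results of these data known. The alternatives were another pseudocount, filters, scalings, sample sets, weights, corrections, the replicate block and leaving out each library.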

Additional observations from a re-analysis of the deposited data

Results flagged for a closer look

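The GM-CSF effect differed between cDC1s and cDC2s for 36 of the genes named above in the test of the difference itself (limma, adjusted p under 0.05 and a difference of at least 1 on the log2 scale, fit to all 16 libraries). Each value is the log2 fold change in cDC1s minus that in cDC2s. Among the named rises it was 2.70 for Itgae, 3.49 for Gbp2b, 2.28 for Tcea3, 2.12 for Slc52a3, 2.28 for Pnpla7, 1.38 for St6gal1, 2.14 for Tyk2, 2.35 for Kdm4b, 2.16 for Mfn2, 2.14 for Acss1 and 1.42 for Itgb7. Among the named falls it was -3.49 for Plac8, -2.27 for Ifitm6, -1.55 for Clec4b2, -2.07 for Ptgis, -1.61 for Sdhaf4 and -2.22 for Fam26f. Clec4b2 and Ptgis were below 1 FPKM in all 4 cDC2 libraries, so that little change could be seen there.

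Among genes of identity and adhesion the difference was 1.82 for Cd207, 2.07 for Irf8, 1.66 for Zbtb46, 2.65 for Itga5, 1.75 for Itga6, 1.84 for Itgal, 1.76 for Itgax and 1.84 for Pecam1. For Clec4a4, which is at or near 0 in cDC1s and fell in cDC2s from 151 and 151 to 77.5 and 72.2 FPKM, it was 1.04. Among receptors and signalling genes it was 1.80 for Kit, 2.41 for Tgfbr2, -1.34 for Il2rg, 1.58 for Stat3, 2.37 for Tlr13, 1.81 for Traf6 and -1.69 for Tnfsf13b. It was -1.96 for Cdk1, -1.58 for Prim1 and -1.14 for Manf. With a pseudocount of 0.1, 8 of the 36 differences lost their call, Itgae among them at 0.24 (adjusted p = 0.874, limma). The length correction kept 18 of the 36 differences, and the fit to the 8 cDC libraries, the fit to the 10 libraries of the dendritic cell gate and the fit with library weights kept 0.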

How the results depend on the processing

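The 1678 calls for the GM-CSF effect became 631 in the fit to the 10 libraries of the dendritic cell gate, 81 in the fit to the 8 cDC libraries, 0 in the fit to the 4 cDC1 libraries (limma, 2145 at an unadjusted p under 0.05) and 454 with library weights, 1033 after the length correction and 836 after the length and GC correction, which was added after the data were seen. Leaving out 1 library gave 1004 to 2821 calls, and after the length correction 513, 679, 999 and 1985. The 775 differences from cDC2s became 2 in the 10 and 2 in the 8 libraries, 4 with weights, 352 after the length and 354 after the length and GC correction, and 286 to 2419 without 1 library (179, 208, 350 and 1536 with the length correction). The other pseudocount, filters and scalings kept both counts within 1.5 times. The share of higher calls was 70.2%, against 54.5% with quantile normalization and 53.3% with median-of-ratios scaling. The length trend ran from 0.322 to 0.415 under these settings and without 1 library, and was 0.242 with the median transcript length.

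The labels do not say whether libraries with 1 number share a mouse. The replicate differences correlated at -0.014 between control and GM-CSF cDC1s and at 0.396 between those cDC2s. Between cDC1s and cDC2s the value was 0.099 in control and 0.671 in treated mice. A correlation near 0 cannot show that libraries of 1 number are unrelated, so any pairing of the cDC1 groups is unknown. The replicate block gave 1743 calls, 1096 with the length correction and 881 with length and GC, and 984, 537 and 541 differences. The rule of the 35 named genes fixed their call after the length correction and without each cDC1 library. Of settings it did not use, both scalings kept the call of 35, with 34 after length and GC, 33 with the pseudocount of 0.1, 32 with library weights and 19 in the 8 cDC libraries. B2m changed sign, from -1.20 to 0.01934, after the length correction without GM-CSF replicate 1, and the cause was not tested. With 2 mice a group and no counts, the depth behind low FPKM values is unknown.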
